A study of Caenorhabditis elegans with 2 samples.

Results

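The 8 genes described here encode the subunits of the DRM complex of Caenorhabditis elegans: lin-9, lin-53, lin-54, lin-37, lin-52, lin-35, efl-1 and dpl-1. They are 8 of the 19973 protein-coding genes annotated on the nuclear chromosomes (Ensembl release 115, WBcel235, the ce11 assembly). The genes were chosen by name after peaks at some of them had been seen in these data, and each summit within 1000 bp of any annotated transcript 5′ end was then collected from 4 deposited region lists. The strength of the peaks at these genes is therefore a description and carries no test.

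The lists come from chromatin immunoprecipitation sequencing (ChIP-seq) of 1 group of whole animals in 2 biological replicates. Per the labels, both replicates were of strain OP525, which is unc-119(tm4063) III and carries wgIs525, a stable transgene for C04F5.9 with a GFP-FLAG tag at its C-terminus. They were hermaphrodite L1 larvae, bleached and starved for synchrony and collected 6 hours after, and the protein was precipitated through its GFP. All cell types of the animal were pooled, and binding was that of a tagged transgene product, so nothing here separates tissues or reads expression. No second condition was included.

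DRM is named for its parts: a DP protein, an Rb-like protein and the MuvB proteins. LIN-35 is the worm's Rb-like pocket protein, EFL-1 is an E2F transcription factor and DPL-1 its DP partner, and LIN-9, LIN-37, LIN-52, LIN-53 and LIN-54 form the MuvB core, in which LIN-54 contacts DNA. The complex is best known as a repressor of cell cycle genes and of germline genes in somatic cells, and its genes belong to the class B synthetic multivulva (synMuv B) group, whose loss together with a class A gene gives extra vulval tissue.

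Within 1000 bp of a 5′ end, 5 of the 8 genes had a summit in the optimal list. That list is the authors' set of 1205 regions, thresholded by the irreproducible discovery rate, a measure of rank agreement between region lists. Over all protein-coding genes the share was 6.89%. The 5 genes were lin-53 (rank 3 of 1205 by the authors' signal value), lin-9 (rank 6), lin-54 (rank 44), lin-35 (rank 172) and efl-1 (rank 576). The DP gene dpl-1 and the MuvB genes lin-52 and lin-37 had no optimal summit in that window. Nothing is read from the member count against 6.89%, because the peaks had been seen when the genes were chosen.

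The sequences under 3 of these summits are shown because the strongest and the weaker peaks differed in their match to a pattern described below. All 3 windows also hold the bases GTGGAGCGC on the plus strand, which the capitals do not mark as a word. How often these bases occur at other peaks was not counted. The window at lin-9 spans chrIII:8904187-8904387 of ce11 (RefSeq sequence of the same build), 100 bases each side of the summit on the plus strand, and lies between genes. Capitals mark the letters it shares with a sequence pattern of 2 blocks that is defined in the next paragraph.

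lin-9: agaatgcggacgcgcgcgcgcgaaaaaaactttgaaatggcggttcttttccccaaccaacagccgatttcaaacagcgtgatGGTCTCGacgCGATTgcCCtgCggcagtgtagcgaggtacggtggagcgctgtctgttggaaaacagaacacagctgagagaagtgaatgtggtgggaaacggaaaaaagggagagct

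The window at efl-1 is chrV:16965784-16965984, also between genes and on the plus strand. Its capitals mark the word AGACGCAG, which among all words of 8 bases had the largest excess of occurrences at summits over flanks in the 1200 optimal peaks that are not at the 5 genes (110 peaks at the summit only, 7 in the flanks only). At lin-54 the window is cut short at the 5′ end of its neighbour rpl-12 and runs over chrIV:13240652-13240798. The capital there marks the summit base.

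efl-1: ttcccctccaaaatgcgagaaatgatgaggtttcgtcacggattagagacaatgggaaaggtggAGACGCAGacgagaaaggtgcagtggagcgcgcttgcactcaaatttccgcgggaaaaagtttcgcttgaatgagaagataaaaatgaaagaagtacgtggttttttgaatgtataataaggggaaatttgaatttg

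lin-54: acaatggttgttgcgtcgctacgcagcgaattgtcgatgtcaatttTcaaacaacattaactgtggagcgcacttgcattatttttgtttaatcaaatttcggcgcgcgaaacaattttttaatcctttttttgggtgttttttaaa

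The 2-block pattern was built from the 10 strongest optimal peaks with those at lin-53 and lin-9 left out. The word of 7 bases found in most of the remaining 8 windows occurred in 6 of them, and the bases shared by at least 5 of these 6 around it gave GGGTCTCG, then 3 free positions, CGATTTGCC, then 2 free positions and a C. This makes 18 fixed letters over 23 bases. The pattern was noticed after the sequences had been read, so the counts below describe it and do not test it. Lines of 47 bases from the plus strand at lin-9 and at 3 of the other top peaks show the pattern and a further word, GTACGGT, that follows it. Capitals mark matching letters and that word. The peak at rank 1 was not among the 6 that gave the pattern, and those at ranks 2 and 4 were.

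lin-9 (rank 6, chrIII:8904269-8904315): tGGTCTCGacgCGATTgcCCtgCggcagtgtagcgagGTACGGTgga

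rank 1 (chrIV:1094327-1094373): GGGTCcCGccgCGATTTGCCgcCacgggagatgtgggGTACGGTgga

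rank 2 (chrII:10868935-10868981): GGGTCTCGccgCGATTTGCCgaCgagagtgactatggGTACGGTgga

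rank 4 (chrII:3077095-3077141): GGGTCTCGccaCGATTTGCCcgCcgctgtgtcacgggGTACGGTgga

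The peak at lin-53, which had no part in making the pattern, matched 18 of 18 letters, centred 13 bp from the summit. The peak at lin-9, also left out, matched 15 of 18, centred 7 bp from the summit. At both, GTACGGT stood on the same strand 14 bases after the pattern, the same spacing as at ranks 1, 2 and 4. Unlike the pattern, this word was not derived with lin-53 and lin-9 left out. Its presence and spacing there are therefore a description and not a test. Within 80 bases of the pattern's start GTACGGT was not found at the other 5 of the 10 strongest peaks. It lay within 100 bp of the summit, in either orientation, at 4.73% of optimal peaks and at 1.18% of the regions ranked below them in the combined list. The best matches within 100 bp of the summits at lin-54, lin-35 and efl-1 were 11, 10 and 11 letters. The median over all 1205 optimal peaks was 10, so these 3 windows were at or near the typical value.

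Matches of at least 15 letters, a limit set at the lin-9 value, were found at 9 of the 10 strongest peaks, at 6 of the 90 peaks ranked 11 to 100 and at 6 of the 1105 peaks ranked 101 to 1205. The shares were 90%, 6.67% and 0.543%. All 6 peaks that gave the pattern were among the 9, so the 90% was largely set by how the pattern and its limit were chosen. Among 28795 regions of the combined list that ranked below the optimal list the share was 0.0729%, and among the 300-base promoters of all 19973 protein-coding genes it was 0.12%. The genome held 13 sites with all 18 letters, and 12 of them lay within 100 bp of an optimal summit. Of those 12, the sites at ranks 2, 4, 7 and 9 were in peaks that gave the pattern, and their match was built in. Nor are the 12 all independent sequences: 7 shared at least 80 of 101 bases with another of the 12. The lin-53 site was the only one in neither group, and it shared at most 49 of 101 with any other. At 15 letters the genome held 192 sites, and 21 were within 100 bp of an optimal summit.

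**Figure D1:**
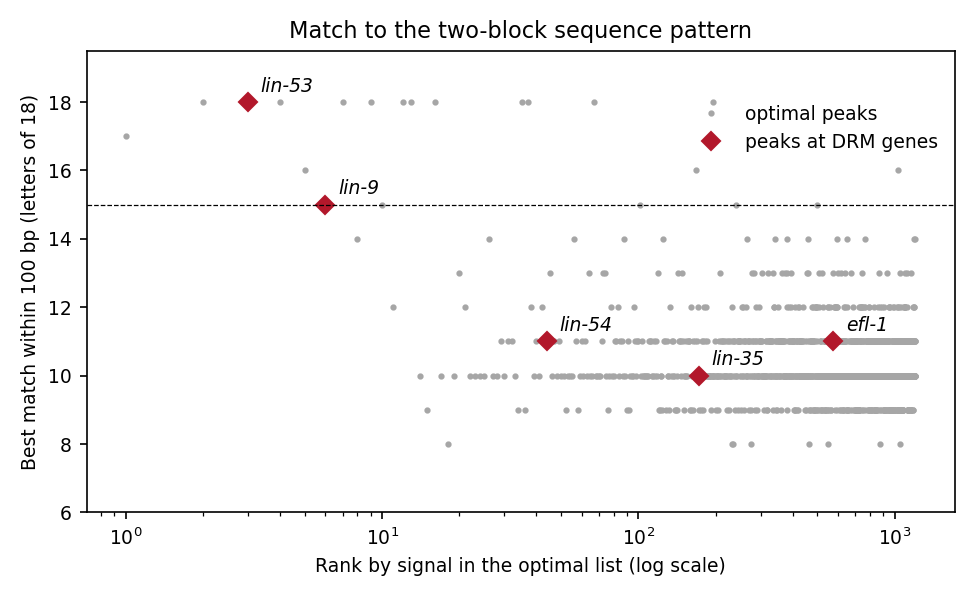
Best match to the 2-block pattern within 100 bp of the summit (letters of 18, vertical axis) for each of the 1205 optimal peaks, by rank of signal (log scale), with peaks at DRM genes as red diamonds and the 15-letter limit dashed. lin-53 (18 letters) and lin-9 (15) sit with the other top peaks, and lin-54, lin-35 and efl-1 sit at 10 or 11.

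Base composition averaged 46.6% GC within 50 bp of the summit and 35.5% in flanks 200 to 250 bp away over all optimal peaks. It was 57.4% against 31.4% at lin-53, and the same pair of values was found at lin-9. It was 37.6% against 28.4% at lin-54, 35.6% against 29.4% at lin-35 and 47.5% against 43.1% at efl-1. The word AGACGCAG lay within 100 bp of the summit at efl-1 alone of the 5. It was present at 13.4% of optimal peaks and 2.40% of the regions below the optimal list. Because the word was chosen for its excess at summits of 1200 of these optimal peaks, its higher share there was largely set by that choice. Sequence words that resemble the sites of LIN-54 and of E2F were searched on both strands. TTTGAA or TTCGAA, which resemble the cell cycle gene homology region that LIN-54-type proteins contact, was present within 100 bp of the summit at lin-53, lin-9, lin-54 and efl-1, and at 47.9% of all optimal peaks against 52.1% of the regions below them. An E2F-like word (TTCCCGC or TTGGCGC or TTCGCGC or TTGCCGC) was present at lin-9, lin-54 and efl-1, and at 19.9% of optimal peaks and 8.02% of the regions below them. Such matches are letters in a window and not evidence of a site.

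Among the MuvB genes, lin-53 had the strongest peak. It encodes a histone-binding WD40 protein of the RbAp48 type that several chromatin complexes share, and lies at chromosome I, 9618196 to 9619760, on the minus strand (WBGene00003036). The optimal region spanned 9619608 to 9620429 and its summit lay 240 bp upstream of the lin-53 5′ end, between genes. Its signal was 22756 in the optimal and combined lists, 15928 in replicate 1 and 6822 in replicate 2, and the rank was 3 in each of the 4 lists. How the signal was scaled is not given in the sources used here, so values are compared only within a list. In the optimal list it was 198 times the list median of 114.9 and made up 6.38% of the summed signal. The neighbour nra-2 is transcribed the other way, and its 5′ end was 227 bp from the summit, slightly nearer than that of lin-53.

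lin-9 encodes the MuvB scaffold protein and lies at chromosome III, 8900237 to 8904131, on the minus strand (WBGene00002998). The optimal region at lin-9 spanned 8903894 to 8904681, with the summit between genes and 156 bp upstream of the 5′ end. The signal was 19199 in the optimal list, 13667 in replicate 1 and 5550.1 in replicate 2, and the rank was 6 in each of the 4 lists. This was 167 times the optimal list's median and 5.38% of its summed signal. No other protein-coding gene had a 5′ end within 1000 bp, and the next, unc-32 (a vacuolar ATPase subunit gene), was 1328 bp away. Of the 5 peaks, this was the only one that no other protein-coding 5′ end shared within 1000 bp.

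Further optimal peaks flanked lin-9 outside the 1000 bp window. One lay 1187 bp upstream of the lin-9 5′ end and 297 bp upstream of that of unc-32, with rank 528 and signal 123.6. Another lay in an intron of lin-9, 2829 bp downstream of the 5′ end, with rank 618 and signal 113.5. Inside the window, the combined list held a weak region in the lin-9 coding sequence, 912 bp downstream, at rank 23926 of 30000.

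lin-54 encodes the DNA-binding MuvB subunit, with a pair of cysteine-rich motifs, and lies at chromosome IV, 13241044 to 13243401, on the plus strand (WBGene00003037). The optimal region was 227 bp wide, from 13240581 to 13240807, and its summit was between genes, 346 bp upstream of the nearest lin-54 5′ end. The signal was 432.8 in the optimal list at rank 44, 284.9 in replicate 1 at rank 45 and 145.8 in replicate 2 at rank 48. It was 3.77 times the optimal list's median. The nearest 5′ end was that of rpl-12, a gene for a large ribosomal subunit protein transcribed the other way, 47 bp from the summit. With a window of 250 bp the peak therefore counted for rpl-12 and not for lin-54.

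lin-37 and lin-52, which encode small MuvB proteins, had no strong peak at their own 5′ ends. lin-37 (chromosome III, 7070890 to 7072552, minus strand) had no summit within 1000 bp in any of the 4 lists, and the nearest optimal summit was 15601 bp away. The nearest combined-list region lay in its coding sequence, 1468 bp downstream of the 5′ end, at rank 12245. A higher-ranked region lay 1592 bp upstream of it and 293 bp upstream of ZK418.5, at rank 1392 of the combined list, rank 1571 in replicate 1 and rank 1513 in replicate 2, all below the 1205 regions of the optimal list. At lin-52 (chromosome III, 9824083 to 9824750, minus strand) the best combined-list summit within 1000 bp ranked 20536 of 30000, 164 bp upstream. That position is in the 3′ UTR of the next gene, ZK632.9. In replicate 1 the best lin-52 summit was 894 bp downstream, in an intron of arl-5, at rank 11795, and in replicate 2 it was 137 bp upstream at rank 5058. The nearest optimal summit was 1325 bp upstream of lin-52 and 643 bp upstream of ZK632.9, at rank 1069 with signal 78.0.

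lin-35 encodes the worm's pocket protein and lies at chromosome I, 5807709 to 5815637, on the plus strand (WBGene00003020). Its optimal region spanned 5807302 to 5807685 and the summit lay between genes, 215 bp upstream. The signal was 224.8 in the optimal list, 1.96 times the median, 133.9 in replicate 1 and 92.4 in replicate 2. The ranks were 172 in the optimal list, 213 in replicate 1 and 119 in replicate 2. The divergent neighbour vps-51, a gene for a subunit of vesicle tethering complexes, had a 5′ end 203 bp from the summit, 12 bp nearer than that of lin-35.

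The partners of the E2F heterodimer differed from each other. efl-1 (chromosome V, 16958590 to 16965675, minus strand, WBGene00001161) had an optimal summit 209 bp upstream, with a signal of 117.6 at rank 576, 1.02 times the list median. The replicates ranked it differently: its signal was 47.7 at rank 1238 in replicate 1 and 75.4 at rank 183 in replicate 2. The next protein-coding 5′ end, of the F-box gene fbxa-90, was 930 bp away. dpl-1 (chromosome II, 9169910 to 9172565, plus strand, WBGene00001061) had only relaxed-list regions. The best in the combined list lay 400 bp upstream at rank 4428 of 30000 with signal 37.5, and a second lay 201 bp upstream at rank 14916. Both fell inside T23G7.2, a gene that overlaps the dpl-1 upstream region. The best dpl-1 region ranked 5695 in replicate 1 and 4097 in replicate 2, and the nearest optimal summit was 7362 bp away.

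**Figure D2:**
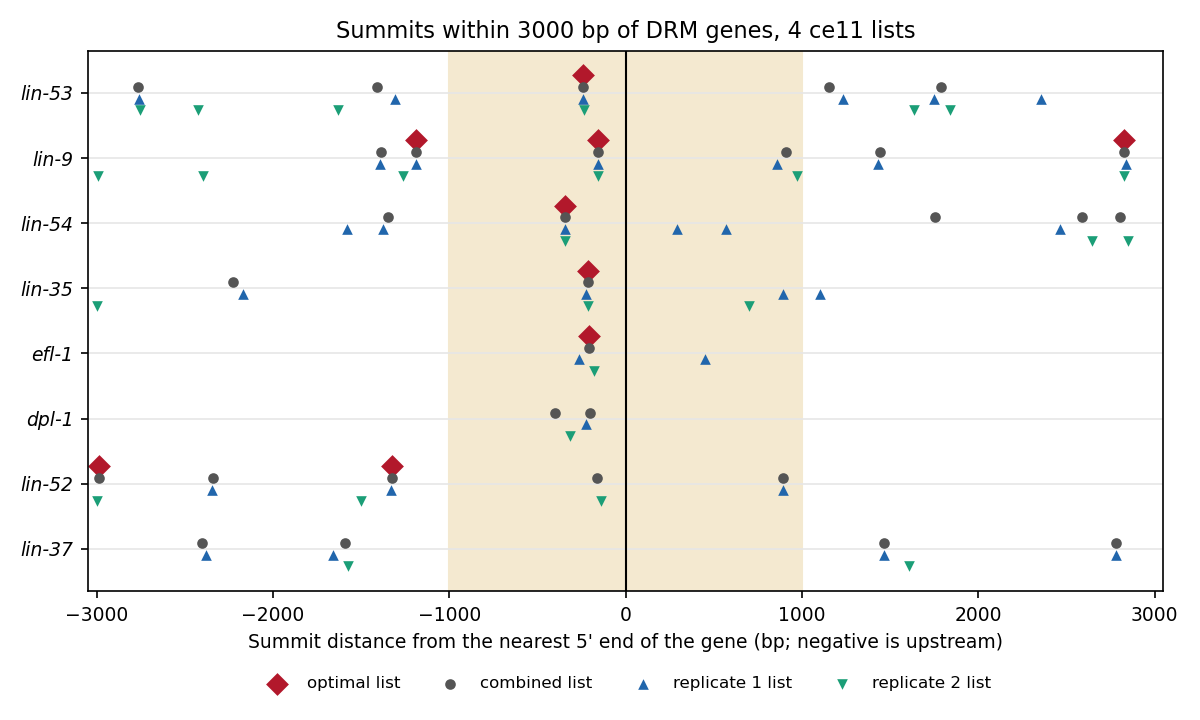
Position of each summit within 3000 bp of a 5′ end of the 8 DRM genes (horizontal axis, bp, negative upstream), with 1 row of markers per gene and a marker shape for each of the 4 ce11 lists; the shaded band is the 1000 bp window. Optimal summits (red diamonds) lie 156 to 346 bp upstream of 5 genes, and dpl-1, lin-52 and lin-37 have none in the band.

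All 5 optimal summits lay upstream, between 156 and 346 bp from the member's 5′ end, with a median of 215 bp upstream. Over the 942 optimal summits with a protein-coding 5′ end within 1000 bp, 88.7% were upstream of the nearest one, and the median position relative to it was -160 bp, upstream. Of the 5 peaks, 4 had a second protein-coding gene within 1000 bp, against 47.5% of those 942. The member's own 5′ end was the nearest at lin-9 and efl-1 only. Which gene of a shared region binding relates to was not tested.

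**Figure D3:**
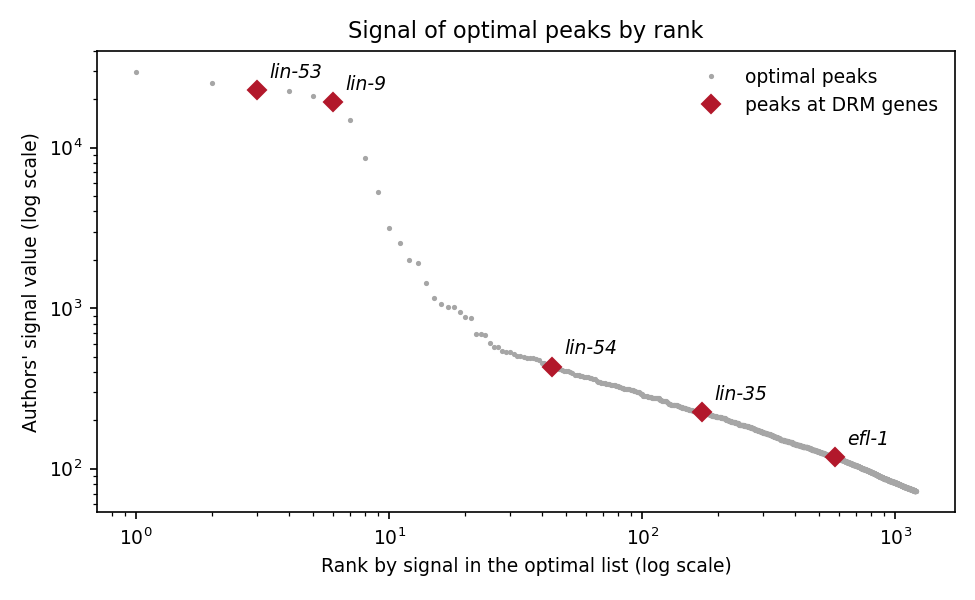
The authors' signal value (log scale) against rank (log scale) for the 1205 optimal peaks, with the 5 peaks at DRM genes as red diamonds. lin-53 (22756) and lin-9 (19199) are among the strongest peaks, before the steep fall of the curve, and lin-54 (432.8), lin-35 (224.8) and efl-1 (117.6) are on the long lower part.

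The neighbours in rank give the genes most like each peak in strength, by a difference of 1 rank in the optimal list. lin-53 stood between gmps-1 and cap-2 (rank 2, signal 25161) and Y25C1A.8 (rank 4, signal 22458). lin-9 stood between mig-5 and cct-1 (rank 5, signal 21099.9) and sec-24.1 (rank 7, signal 14869). lin-54 stood between C06A5.3 (rank 43, signal 439.7) and eif-3.C (rank 45, signal 430.4). Below lin-35 was ddp-1 (rank 173, signal 224.1) and below efl-1 was cpsf-1 (rank 577, signal 117.5). The peaks just above those, at ranks 171 and 575, had no protein-coding 5′ end within 500 bp.

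The peaks also differed in width. Of the 1205 optimal regions, 1032 had the common width of 384 bp, 16 were wider and 157 were narrower. lin-53 (822 bp) and lin-9 (788 bp) were the third and the fifth widest. The lin-54 region was narrow in each replicate too, at 203 bp in replicate 1 and 153 bp in replicate 2, and lin-35 and efl-1 had the common width.

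The replicates placed the 3 strongest of the 5 peaks almost identically and efl-1 least alike. The summits called in the 2 replicates were 3 bp apart at lin-53, 1 bp apart at lin-9 and 1 bp apart at lin-54. They were 11 bp apart at lin-35 and 81 bp apart at efl-1. For each optimal peak, the best-ranked overlapping region of each replicate list was taken. Some adjacent optimal peaks therefore share the same replicate regions, and they are included in the medians and shares here. The median gap over the 1201 optimal peaks with such a region in both replicates was 17 bp. Of those peaks, 8.74% had a gap at least as large as that of efl-1. The larger replicate rank divided by the smaller was 1 at lin-53 and lin-9, 1.07 at lin-54, 1.79 at lin-35 and 6.77 at efl-1, against a median of 1.43, and 0.916% of the peaks had a ratio at least that of efl-1. The optimal list had been thresholded by the irreproducible discovery rate, so these values come from a selected list. Which region lists were compared for that threshold is not known here. A place in it does not show that a given peak agreed between replicates. Only 1201 of its 1205 peaks had an overlapping region in both replicate lists, and the 5 peaks held the same ranks in the combined list.

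**Figure D4:**
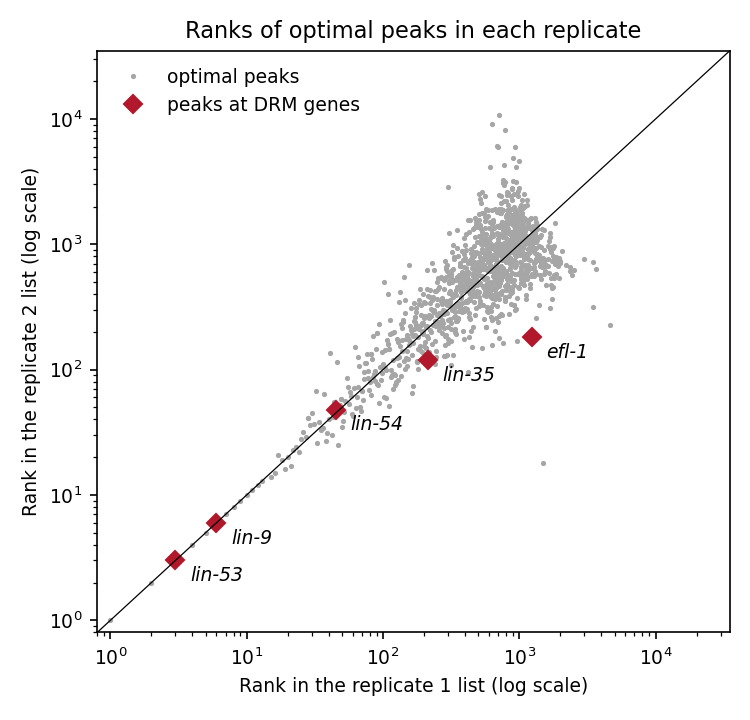
Rank of the best-ranked region overlapping each optimal peak in the replicate 1 list (horizontal, log scale) and the replicate 2 list (vertical, log scale). The line marks equal rank, and the 5 peaks at DRM genes are red diamonds. lin-53, lin-9 and lin-54 lie on or next to the line, and efl-1 lies far below it, at 1238 and 183.

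Each replicate was also read alone, with its own 1205 strongest regions. Replicate 1 gave a summit within 1000 bp at 4 of the 8 genes (6.70% of all protein-coding genes), without efl-1. Replicate 2 gave 5 of the 8 (6.84%), the same 5 as the optimal list. In the whole relaxed lists, which hold background regions as well as peaks, 7 of the 8 genes had a summit in the combined list, in replicate 1 and in replicate 2. The share of all protein-coding genes was 50.3%, 50% and 50.4%, so about as many protein-coding genes had such a region as had none.

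The count depended on the window. No DRM gene had an optimal summit within 100 or 150 bp of a 5′ end, where 1.3% and 2.16% of all protein-coding genes had one, and 1 of the 8, lin-9, had one within 200 bp (3.07% of all). An optimal summit was found at 4 of the 8 genes within 250 bp (3.71% of all protein-coding genes), at 5 within 500 bp (5.51%) and at 6 within 2000 bp (9.04%). The gene lost at 250 bp was lin-54 and the gene gained at 2000 bp was lin-52. The member summits nearest to the 1000 bp limit were that of lin-54 on the inside, at 346 bp, and those of lin-9 (its second peak) and lin-52 on the outside, at 1187 and 1325 bp.

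**Figure D5:**
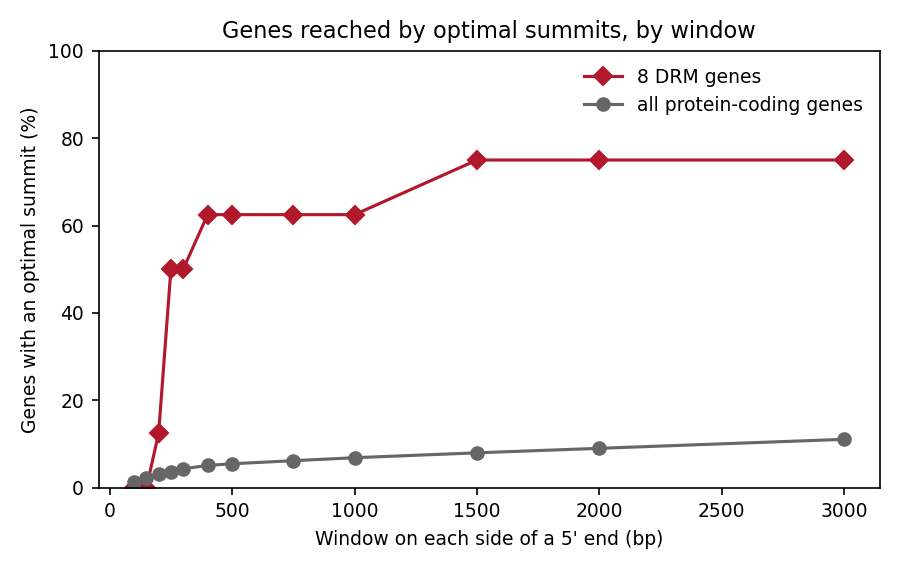
Share of genes with an optimal summit (%, vertical axis) against the window on each side of the 5′ end (bp), for the 8 DRM genes (red) and all protein-coding genes (grey). The DRM genes are at 0 up to 150 bp, below all genes, at 1 of 8 at 200 bp, at 5 of 8 from 400 to 1000 bp and at 6 of 8 from 1500 bp, while the share of all genes rises from 1.3% to 11.1%.

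Genes around the DRM complex were read from 4 lists by the same rule. Of 9 synMuv B genes outside the complex, 1 had an optimal summit within 1000 bp: lin-36, which encodes a THAP-domain protein, with a summit 249 bp upstream at rank 314 and signal 164.3. None of 4 synMuv A genes had one. Of 12 partners of LIN-53 in other complexes, 3 had one. They were hat-1, a histone acetyltransferase gene (rank 73, signal 338.4, 228 bp upstream), chaf-2, a chromatin assembly factor gene (rank 752, signal 99.7, 208 bp upstream), and mep-1, a zinc finger gene (rank 1073, signal 77.8, 158 bp upstream). Of 15 E2F relatives and core cell cycle regulators, 1 had one: cyb-1, a cyclin B gene, 532 bp upstream at rank 807, and that summit was nearer to the replication gene orc-5, at 96 bp. The share of all protein-coding genes by this rule was the 6.89% given above.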

How the data were processed

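Regions came from 4 lists on the ce11 assembly: 1 per replicate, 1 from both replicates combined and 1 optimal list, per the companion text of the deposited files. Neither aligner nor caller nor cutoff is given in the sources used here. Read depth is unknown. Column 7 holds the signal value deposited by the authors, used only to rank regions within a list. Column 9 of the deposited lists holds a −log10 q value, 2.93 throughout the optimal list, and did not enter the ranking. The deposited summit offset gave the summit. Lists on ce10 were not used here.

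Distances were taken from every annotated 5′ end of protein-coding genes in Ensembl release 115, on the 6 nuclear chromosomes, with Python 3.11.15 and pandas 2.3.3. Sequences are of the RefSeq genome of the same build, inside whose chromosomes all regions lay. Assignment and pattern search were tested on simulated data. No test was run on the members. The members, lists and windows were chosen with earlier results of these data known. Named genes are the members, the genes that share their regions, their neighbours in rank and the bound genes of the 4 lists. Windows, 5′ ends, nearest genes, stricter lists and each replicate alone were tried as alternatives.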

Additional observations from a re-analysis of the deposited data

How the results depend on the processing

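The count of 5 genes with an optimal summit within 1000 bp ran from 4 to 6 with windows of 250, 500 and 2000 bp, with only the outermost 5′ end, with upstream summits only, with region overlap and in the 602 regions of highest signal. It fell to 2 when each summit counted only for the gene with the nearest 5′ end, because nra-2, rpl-12 and vps-51 were nearer than lin-53, lin-54 and lin-35. Without replicate 1 or replicate 2 the count was 5 or 4, and that for the combined list was 7 both times (6 to 8 over the windows). Leaving out a replicate gave best ranks of 45 to 48 for lin-54, 119 to 213 for lin-35, 183 to 1238 for efl-1, 4097 to 5695 for dpl-1 and 5058 to 11795 for lin-52. With narrower windows the count was 0 at 100 and 150 bp and 1 at 200 bp. The best rank of lin-52 was 1069 with a window of 2000 bp, and that of dpl-1 was 14916 with 250 bp. The share of all genes was 3.71%, 5.51% and 9.04% with windows of 250, 500 and 2000 bp.

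The 2-block pattern, whose alternatives were chosen after seeing the data, matched 21 optimal peaks with 15 letters, 35 with 14, 16 with 16 and 17 within 50 bp, and 18 to 21 without a replicate. No paired analysis was possible because there is 1 group. In the combined list, the −log10 q values of regions within 1000 bp were 0.496 and 0.0853 at dpl-1. They were 0.0514 and 0.0436 at lin-52, while every optimal peak had 2.93. Depth is unknown, and these weak regions at dpl-1 and lin-52 cannot be told from background.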
